A study of Bos taurus with 8 samples.

Results

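The genes examined here encode the enzymes that carry gluconeogenesis past the irreversible steps of glycolysis, together with the transporter that carries glucose-6-phosphate to the last of these enzymes. They are PC, PCK1, PCK2, FBP1, SLC37A4 and G6PC1 (also written G6PC), 6 of the 12603 genes matched on the array. The members were chosen from the pathway with the difference between the diet groups in these same arrays already known. Their differences between groups are therefore given as a description, without a test.

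Liver RNA of Japanese Black fetal calves at 8.5 months in utero was hybridised in 1 colour to Agilent bovine arrays. The 4 low-nutrition (LN) fetuses, L5, L6, L8 and L9, came from dams fed 60% of their nutritional requirement during gestation, and the 4 high-nutrition (HN) fetuses, L1, L2, L3 and L10, from dams fed 120%. All calves were sired by the same bull with male-sorted semen, and no group of dams was fed exactly to requirement. According to the study's methods, fetuses were taken by body weight, lightest first in LN and heaviest first in HN, so that diet and body weight separate the groups together. The labels give 1 fetus per array, although the general text of the series speaks of RNA pooled by treatment, and each array is taken here as a separate fetus. In bulk liver RNA, fewer cells of a type and less RNA per cell cannot be told apart.

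Gluconeogenesis builds glucose from lactate, amino acids, glycerol and, in ruminants, propionate. Pyruvate carboxylase and the phosphoenolpyruvate carboxykinases carry carbon past the irreversible pyruvate kinase step, fructose bisphosphatase reverses phosphofructokinase, and the glucose-6-phosphatase system in the endoplasmic reticulum releases free glucose. The pathway is held low in the fetus, which receives glucose through the placenta, and is switched on around birth, with glucagon and glucocorticoids raising and insulin lowering transcription of PCK1 and G6PC1.

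All 6 genes had a lower mean signal in LN than in HN fetuses, and the differences were of very unequal size. G6PC1 was 11.1-fold and PCK1 3.96-fold lower in LN by the means of log2 signal. FBP1, SLC37A4 and PC were lower by 1.34-fold, 1.30-fold and 1.23-fold, and PCK2, the mitochondrial carboxykinase, by 1.12-fold. No member separated the groups fully, and the signal of HN fetus L3 did not exceed that of the highest LN fetus for any detected probe.

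The genes were measured by 12 probes, of which 11 were well above background on all 8 arrays and 1, for PCK1, on none. More than 1 probe was detected for 4 of the genes, and comparisons by gene use the brightest detected probe. Signals are log2 of the background-subtracted intensity after quantile normalization between arrays, and each probe is compared only with itself across fetuses. The standard error of a difference comes from limma, which borrows information on the spread from all detected probes.

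**Figure D1:**
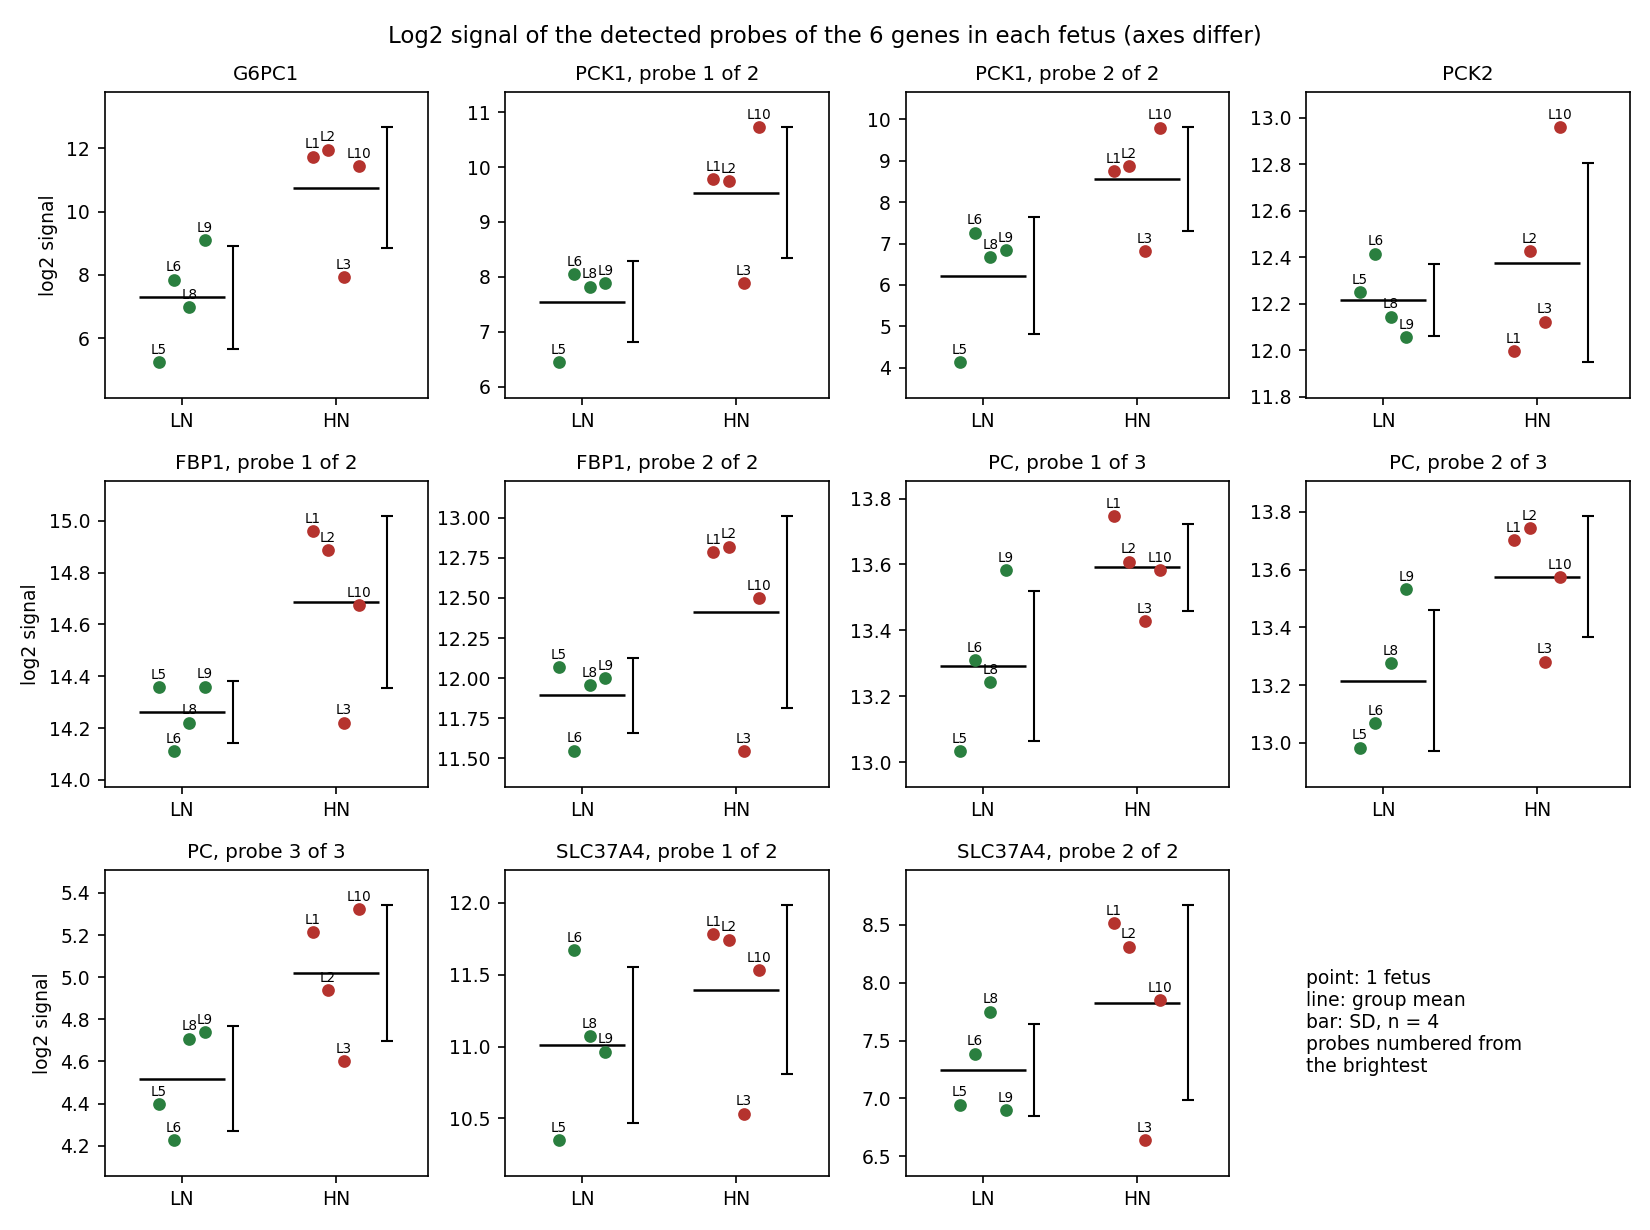
Log2 signal (vertical axes, which differ between panels) of the 11 detected probes of the 6 genes in the 4 LN and 4 HN fetuses, where a point is 1 fetus, a horizontal line the group mean and a bar the SD (n = 4). The groups overlap in every panel, and HN fetus L3 is the lowest HN fetus in 10 of 11 panels.

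Between 32635 and 33371 spots were well above background in LN and between 33254 and 34369 in HN, and 0 spots were saturated. Across the 33439 detected probes, limma with Benjamini-Hochberg adjustment called 0% at 0.05, with 0.634 as the lowest adjusted p and 2113 probes at or below an unadjusted p of 0.05. Hepatocyte markers, of which 11 of 12 were detected, had summed signals of 2563970 to 2710953 in LN and 2522579 to 2657392 in HN, so transcripts that define hepatocytes were abundant in every fetus. These markers are among the brightest probes, to which quantile normalization gives the same set of values on every array. The evenness of their sums therefore cannot show whether hepatocyte content was equal. Each diet group was run on a slide of its own, and slide and diet cannot be told apart.

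PC (NM_177946) encodes pyruvate carboxylase, the mitochondrial enzyme that makes oxaloacetate from pyruvate for both gluconeogenesis and the citrate cycle. Its brightest probe gave log2 signals of 13.03, 13.31, 13.24 and 13.58 in LN fetuses L5, L6, L8 and L9 and of 13.75, 13.61, 13.43 and 13.58 in HN fetuses L1, L2, L3 and L10. LN fetus L9 reached the level of HN fetus L10 and exceeded L3, while the other 3 LN fetuses were below all HN fetuses. Group means were 13.29 ± 0.23 for LN and 13.59 ± 0.13 for HN (± SD, n = 4 each), a difference of -0.30 (standard error 0.14). The other probes differed by -0.36 (standard error 0.16) and -0.50 (standard error 0.19), the latter a dim probe with processed intensities of 14.0 to 42.5.

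PCK2 (NM_001205594) encodes the mitochondrial phosphoenolpyruvate carboxykinase. Its log2 signals were 12.25, 12.41, 12.14 and 12.06 in LN fetuses L5, L6, L8 and L9 and 11.996, 12.43, 12.12 and 12.96 in HN fetuses L1, L2, L3 and L10. HN fetus L1 was the lowest of all 8 and HN fetus L10 the highest, and the LN values lay between them. Group means were 12.22 ± 0.15 for LN and 12.38 ± 0.43 for HN (± SD, n = 4 each), a difference of -0.16 (standard error 0.21). The direction rested on fetus L10, without which the difference was 0.035.

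PCK1 (NM_174737) encodes the cytosolic carboxykinase, which is the hormone-regulated form in liver. The brightest of its probes gave log2 signals of 6.44, 8.05, 7.82 and 7.88 in LN fetuses L5, L6, L8 and L9 and of 9.78, 9.75, 7.88 and 10.73 in HN fetuses L1, L2, L3 and L10. HN fetuses L1, L2 and L10 were above all LN fetuses, while L3 was at the level of LN fetuses L8 and L9. Group means were 7.55 ± 0.75 for LN and 9.53 ± 1.19 for HN (± SD, n = 4 each), a difference of -1.98 (standard error 0.59). Before normalization between arrays, the processed intensities of this probe were 104 to 241 in LN, 225 in HN fetus L3 and 980 to 1480 in the other HN fetuses.

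The second PCK1 probe gave log2 signals of 4.12, 7.26, 6.67 and 6.85 in the LN fetuses, in the same order, and of 8.75, 8.87, 6.81 and 9.80 in the HN fetuses. It ordered the fetuses much as the first did, with L5 lowest, L10 highest and L3 among the LN fetuses, and Pearson's r between the 2 probes was 0.98 over the 8 fetuses. The difference was -2.33 (standard error 0.79), and -1.63 without LN fetus L5. The remaining PCK1 probe was well above background on 0 of 8 arrays, and no fold is given for it.

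FBP1 (NM_001034447) encodes fructose bisphosphatase, which turns fructose bisphosphate into fructose-6-phosphate. Its brightest probe gave log2 signals of 14.36, 14.11, 14.22 and 14.36 in LN fetuses L5, L6, L8 and L9 and of 14.96, 14.89, 14.22 and 14.67 in HN fetuses L1, L2, L3 and L10. HN fetus L3 had the same value as LN fetus L8, and the other 3 HN fetuses were above all LN fetuses. Group means were 14.26 ± 0.12 for LN and 14.69 ± 0.33 for HN (± SD, n = 4 each), a difference of -0.42 (standard error 0.17). The second probe differed by -0.52 (standard error 0.28), and on it L3 was the lowest of the 8 fetuses, at 11.54. Without L3 this probe differed by -0.81.

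SLC37A4 (NM_001205350) encodes the translocase that brings glucose-6-phosphate into the endoplasmic reticulum, where the active site of glucose-6-phosphatase lies. Its brightest probe gave log2 signals of 10.35, 11.67, 11.07 and 10.96 in LN fetuses L5, L6, L8 and L9 and of 11.78, 11.75, 10.53 and 11.53 in HN fetuses L1, L2, L3 and L10. The groups crossed over in both directions, with LN fetus L6 near the top of the HN fetuses and HN fetus L3 near the bottom of the LN fetuses. Group means were 11.01 ± 0.54 for LN and 11.40 ± 0.59 for HN (± SD, n = 4 each), a difference of -0.38 that was smaller than the SD of either group (standard error 0.34). The second probe differed by -0.58 (standard error 0.40), with L6 at 7.39 and L3 the lowest of the 8 fetuses, at 6.64. Single fetuses moved these values: the brightest probe differed by -0.16 without LN fetus L5 and -0.67 without HN fetus L3, and the second probe by -0.35 without HN fetus L1 and -0.98 without L3.

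G6PC1 (NM_001076124), measured by 1 probe, encodes the catalytic subunit of glucose-6-phosphatase, which hydrolyses glucose-6-phosphate to glucose. Its log2 signals were 5.24, 7.85, 6.98 and 9.10 in LN fetuses L5, L6, L8 and L9 and 11.74, 11.95, 7.93 and 11.44 in HN fetuses L1, L2, L3 and L10. HN fetus L3 lay between LN fetuses L6 and L9, whereas the other 3 HN fetuses were above all LN fetuses. Group means were 7.29 ± 1.62 for LN and 10.76 ± 1.90 for HN (± SD, n = 4 each), a difference of -3.47 (standard error 1.04). In processed intensity, the LN fetuses read 44.0, 177, 132 and 445, and the HN fetuses 3750, 4780, 232 and 2470. The difference was -2.79 without LN fetus L5 and -4.42 without HN fetus L3, the extremes when each fetus was left out in turn.

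**Figure D2:**
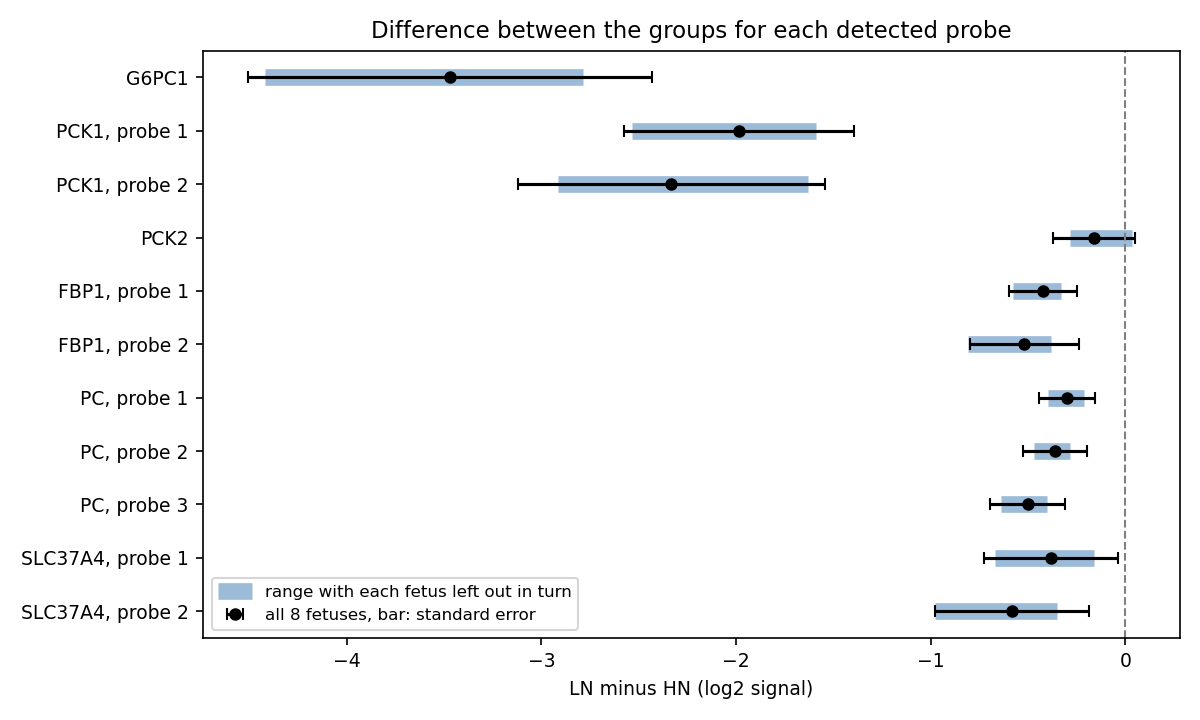
LN minus HN difference in log2 signal (horizontal axis) for each of the 11 detected probes, with the limma standard error as the thin bar and the range with each fetus left out in turn as the thick band. The bands of 10 probes stay below 0, and the band of PCK2 reaches 0.035.

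G6PC1 and PCK1 also varied most among fetuses of the same group. The pooled SD within groups was 1.77 for G6PC1, and 0.209% of all detected probes had a larger one. It was 0.99 for the brightest PCK1 probe, with 1.92% of detected probes above it, and 0.56 for SLC37A4, with 10.2% above it. For PCK2, FBP1 and PC it was 0.32, 0.25 and 0.19, in the range where 36.1%, 53.2% and 72.5% of detected probes varied more. A large difference between groups thus went with a large spread between fetuses for both G6PC1 and PCK1.

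Of the 11 detected member probes, all were lower in LN on average and 0 separated the groups without overlap, where 1.69% of all detected probes did so in this direction. When HN fetus L3 was left out, 8 of 11 member probes separated the groups: those of G6PC1, PCK1 and FBP1, 2 of 3 for PC and 1 of 2 for SLC37A4. The share among all detected probes was then 3.91%. L3 was singled out after its values were seen and the direction was known when the genes were chosen, so nothing is read from these counts. L3 is labelled as an HN fetus, and this label could not be checked against any measurement used here. With each of the other 7 fetuses left out, between 0 and 3 of 11 member probes separated, with 3 only without LN fetus L9, beside 2.37% to 3.23% of all detected probes (3.22% without L9).

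The position of single fetuses repeated from gene to gene. HN fetus L3 was within the range of the LN fetuses for 9 of 11 probes and below all of them for the other 2, the second probes of FBP1 and SLC37A4. HN fetus L10 was within that range for 2 probes and L1 and L2 for 0, and L1 was below it for PCK2. LN fetuses L5, L6, L8 and L9 lay within the range of the HN fetuses for 4, 6, 6 and 11 of 11 probes, a range whose lower end was set by L3 for 10 of the 11. LN fetus L5 was the lowest of all 8 for 6 probes. Expressed as the deviation from the mean of the 8 fetuses and averaged over the 6 genes, L5 was lowest, at -1.22 on the log2 scale. LN fetuses L8, L6 and L9 followed at -0.58, -0.26 and -0.17, with HN fetus L3 among them at -0.48. The other HN fetuses stood at 0.84 for L1, 0.90 for L2 and 0.99 for L10. G6PC1 and PCK1 carry most of this average.

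**Figure D3:**
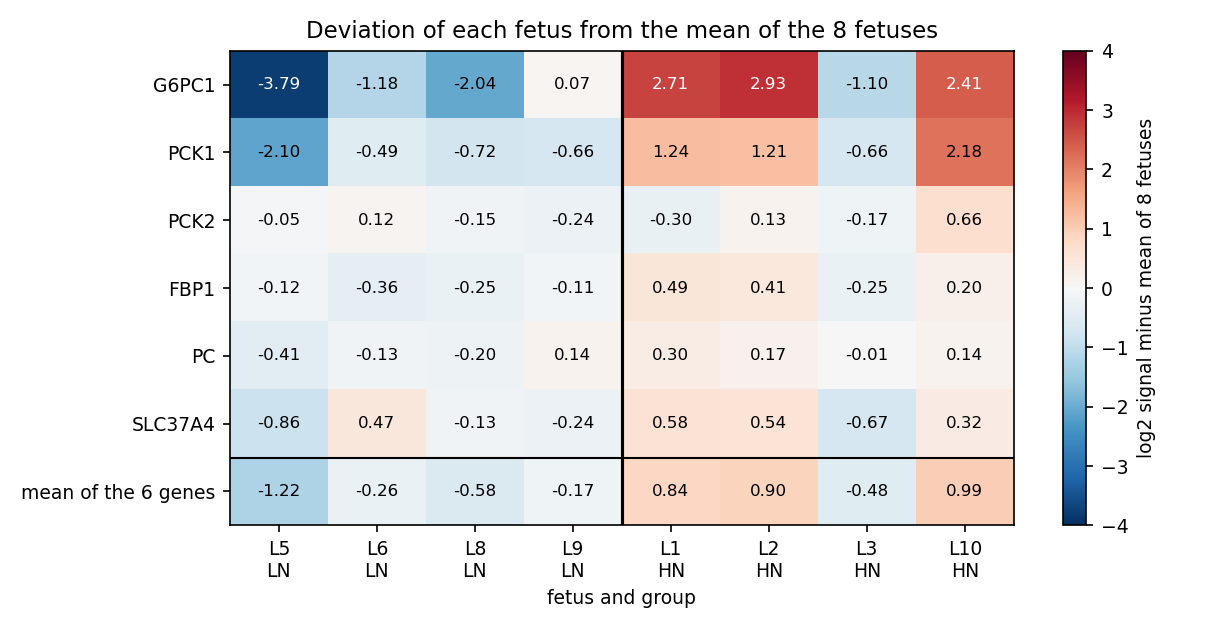
Deviation of each fetus (columns, LN left and HN right) from the mean log2 signal of the 8 fetuses, for the brightest detected probe of each gene (rows) and averaged over the 6 genes (bottom row). HN fetus L3 (mean -0.48) has negative values for all 6 genes, as have LN fetuses L5 (mean -1.22) and L8 (mean -0.58).

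Blood cell markers did not stay level across these fetuses. Of 10 erythroid markers 4 were detected, and their summed signal was 6314 in LN fetus L5 against 280 to 430 in the other LN fetuses and 184 to 542 in HN, where L3 was highest. SLC4A1, KLF1, EPB42, RHAG and HEMGN were matched but not detected. Of 12 granulocyte markers 10 were detected, with summed signals of 8752 to 26460 in LN and 3926 to 9567 in HN. Of these 10 genes 9 were higher in LN, with a median difference of 0.90, and the groups did not overlap for 3 of them, against 2.59% of all genes in this direction: CATHL4 at 1.78 (standard error 0.54), MPO at 1.32 (standard error 0.33) and ELANE at 0.91 (standard error 0.28), which encode proteins of granulocyte granules. The highest erythroid sums of the groups were thus those of L5 and L3, which were also the lowest LN and the lowest HN fetus for G6PC1 and PCK1. The part of blood cells in the members' signals was not tested. Summed signals of 9 macrophage markers were 201473 to 338916 in LN and 215263 to 342688 in HN, and those of 10 endothelial markers 17678 to 26313 and 15612 to 21633. For 9 stellate and bile duct markers the sums were 85738 to 103123 in LN and 79198 to 162603 in HN.

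PCK1, PC, FBP1 and SLC37A4 varied with G6PC1 across fetuses, and PCK2 did so no more than many other genes. Pearson's r between G6PC1 and PCK1 was 0.94 over the 8 fetuses, and 1 of 10854 other genes followed G6PC1 more closely than PCK1 did. For PC, FBP1 and SLC37A4 the r with G6PC1 was 0.93, 0.83 and 0.78, and 3, 59 and 119 other genes were above them. PCK2 had an r of 0.31 with G6PC1, a level that 2459 other genes exceeded. These values contain the difference between the groups, for which the members were chosen, and all come from the same 8 arrays.

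With each group's mean removed, so that only variation within groups counts, the r with G6PC1 was 0.87 for PC, 0.86 for PCK1, 0.83 for SLC37A4, 0.65 for FBP1 and 0.17 for PCK2. Between 34 genes for PC and 3443 genes for PCK2 then followed G6PC1 more closely. PCK1 and SLC37A4 had an r of 0.84 by this measure, and PCK1 and PCK2 one of 0.53. PCK2 and PC had an r of -0.20. LN fetus L5 and HN fetus L3 were each the lowest of their group for G6PC1, PCK1 and SLC37A4. These fetuses weigh most in the r values among those genes, which therefore rest on few animals.

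Among 1344 genes outside the 6 whose signal varied with an SD of at least 0.5 over the fetuses, the 5 most like G6PC1 were RBP5, ABCA4, FTCD, APOF and UGT1A1, with r between 0.894 and 0.909. The 5 most like PCK1 were APOF, CIBAR2, FTCD, URAD and C22H3orf22, with r between 0.929 and 0.950. APOF encodes an apolipoprotein of plasma lipoproteins, and its log2 signals were 9.52, 10.55, 10.01 and 10.05 in LN fetuses L5, L6, L8 and L9 and 10.80, 10.87, 9.98 and 11.03 in HN fetuses L1, L2, L3 and L10. As for PCK1, L5 was lowest, L10 highest and L3 among the LN fetuses, an order that follows from picking APOF by its r with PCK1. FTCD, an enzyme of histidine breakdown, differed by -0.93 (standard error 0.27), and UGT1A1, which glucuronidates bilirubin, by -0.91 (standard error 0.23). All these genes were picked by their r with members already known to be lower in LN. The direction of their differences follows from that choice and is no separate result.

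The rest of the pathway was examined in 8 lists of genes, of which 107 of 127 were detected. Most of the others could not be matched to a probe, so their expression was not measured. Outside the lists of paralogs and of pyruvate dehydrogenase, every matched gene was detected. Of the 107 detected genes, 64 were lower and 43 higher in LN, 0 passed an adjusted p of 0.05 by limma, and 1 differed by more than 1 on the log2 scale. Groups did not overlap for 3 genes lower in LN (2.80%) and for 3 genes higher in LN (2.80%), where the shares among all 10860 detected genes were 1.56% and 2.59%. The share higher in LN was thus near that of all genes, while the share lower in LN was above it but rested on 3 genes. Over all genes, 48.4% were lower in LN and the median difference was 0.0075.

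Paralogs of the members were measured beside them. G6PC3, the glucose-6-phosphatase found in most tissues, differed by -0.19 (standard error 0.16), SLC37A2 by -0.18 (standard error 0.19), FBP2, the muscle form of fructose bisphosphatase, by -0.04 (standard error 0.46), and SLC37A3 by 0.22 (standard error 0.17). Of these 4 genes 3 were lower in LN, and the median was -0.11 (0.041 without HN fetus L10). None of the differences was much larger than its standard error.

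The 13 enzymes that glycolysis and gluconeogenesis share had a median of 0.059, with 5 lower and 8 higher in LN. The median was 0.017 without HN fetus L10. ENO3, the enolase best known from muscle, gave log2 signals of 9.13 to 9.41 in LN and 9.42 to 9.89 in HN without overlap, a difference of -0.34 (standard error 0.14). PGK1 and PGAM2 were at the upper end, at 0.18 (standard error 0.20) and 0.29 (standard error 0.60), and the 2 probes of PGAM2 pointed in both directions.

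The enzymes that run against the members, from glucose phosphorylation to pyruvate kinase, had 12 of 15 genes detected, 7 lower and 5 higher in LN, with a median of -0.0026 that was 0.0081 when arrays were scaled to their 75th percentile and between -0.057 (without LN fetus L9) and 0.030 (without LN fetus L8) with each fetus left out. HKDC1, a hexokinase domain protein, gave log2 signals of 13.12, 12.46, 11.53 and 12.65 in LN fetuses L5, L6, L8 and L9 and of 10.84, 10.32, 12.21 and 11.12 in HN fetuses L1, L2, L3 and L10. Its difference was 1.32 (standard error 0.44), opposite in direction to that of the members, and again L3 alone of the HN fetuses lay within the LN range. PKLR, the pyruvate kinase of liver and red cells, and PKM differed by -0.40 (standard error 0.20) and -0.36 (standard error 0.16). For PFKFB3, which makes the activator of phosphofructokinase, the brightest probe differed by 0.45 (standard error 0.30), and its probes pointed in both directions.

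For substrate entry, 20 of 22 genes were detected, 12 lower and 8 higher in LN, with a median of -0.10 (0.00059 without HN fetus L2). The lowest of the list were GK, glycerol kinase, at -0.77 (standard error 0.58) and AQP9, the glycerol channel of hepatocytes, at -0.70 (standard error 0.41). SLC16A1, a lactate and pyruvate carrier, and SDS, serine dehydratase, were at 0.24 (standard error 0.16) and 0.27 (standard error 0.22). All 4 overlapped between the groups.

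The pyruvate dehydrogenase complex and its kinases decide whether pyruvate is oxidised or left for pyruvate carboxylase. Of 9 detected genes of 11, 3 were lower and 6 higher in LN, with a median of 0.047 (0.019 without HN fetus L1 and 0.099 without HN fetus L2). PDK2, a kinase that inactivates the complex, had log2 signals of 10.36, 10.46, 10.37 and 10.58 in LN fetuses L5, L6, L8 and L9 and of 10.84, 10.998, 10.82 and 11.12 in HN fetuses L1, L2, L3 and L10, a difference of -0.51 (standard error 0.12) without overlap. Absence of overlap means that L3 also lay above all LN fetuses for PDK2, and nothing more is read from its position. PDK3 differed by 0.24 (standard error 0.10), also without overlap, PDK4 by -0.40 (standard error 0.60) and PDHX by 0.16 (standard error 0.13).

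Of 10 genes of glucose and glycogen handling, all were detected, 6 lower and 4 higher in LN, with a median of -0.12 (-0.062 without HN fetus L1). SLC2A1, the glucose transporter of many fetal tissues, was higher in LN without overlap, with 10.16 to 10.79 in LN and 9.51 to 9.90 in HN and a difference of 0.62 (standard error 0.17). PYGB, a glycogen phosphorylase, and PGM1, a phosphoglucomutase, differed by -0.31 (standard error 0.20) and 0.17 (standard error 0.19). SLC2A2, the main glucose transporter of adult hepatocytes, was at -0.24 (standard error 0.32) and was named outside the rule for its role.

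Among receptors and second messengers of the hormones that act on PCK1 and G6PC1, 15 of 20 genes were matched, and all 15 were detected. Of these, 11 were lower and 4 higher in LN, with a median of -0.064 (-0.012 without HN fetus L1). INSR, IRS1, IRS2, PDE3B and SIK1 had no matched probe, so their expression was not measured. HSD11B1, which regenerates active glucocorticoid inside hepatocytes, gave log2 signals of 8.03, 9.10, 9.63 and 9.27 in LN fetuses L5, L6, L8 and L9 and of 10.80, 10.15, 9.34 and 9.74 in HN fetuses L1, L2, L3 and L10. The difference was -0.999 (standard error 0.40), with L5 lowest and L3 the lowest of the HN fetuses and within the LN range. NR3C1, the glucocorticoid receptor, and GNAS, the stimulatory G protein, differed by 0.15 (standard error 0.16) and 0.18 (standard error 0.11). GCGR, the glucagon receptor, was at 0.0084 (standard error 0.17) and was named outside the rule for its role.

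Of 30 transcriptional regulators 24 were matched, and all 24 were detected, 17 lower and 7 higher in LN. Their median was -0.071 (0.050 without LN fetus L5). FOXO1, EP300, FOXA2, NR0B2, PER1 and KAT2A had no matched probe and were likewise not measured. PPARGC1A and CRTC2, coactivators of PCK1 and G6PC1 transcription, differed by -0.40 (standard error 0.22) and -0.38 (standard error 0.13), with overlap. SIRT1, a deacetylase that acts on such coactivators, was 0.22 higher (standard error 0.13), with LN fetuses at 8.45 to 8.83 and HN fetuses at 8.15 to 8.44. TRIB1 and NR4A1 were at 0.52 (standard error 0.36) and 0.46 (standard error 0.39). All of these differences were small beside those of G6PC1 and PCK1.

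**Figure D4:**
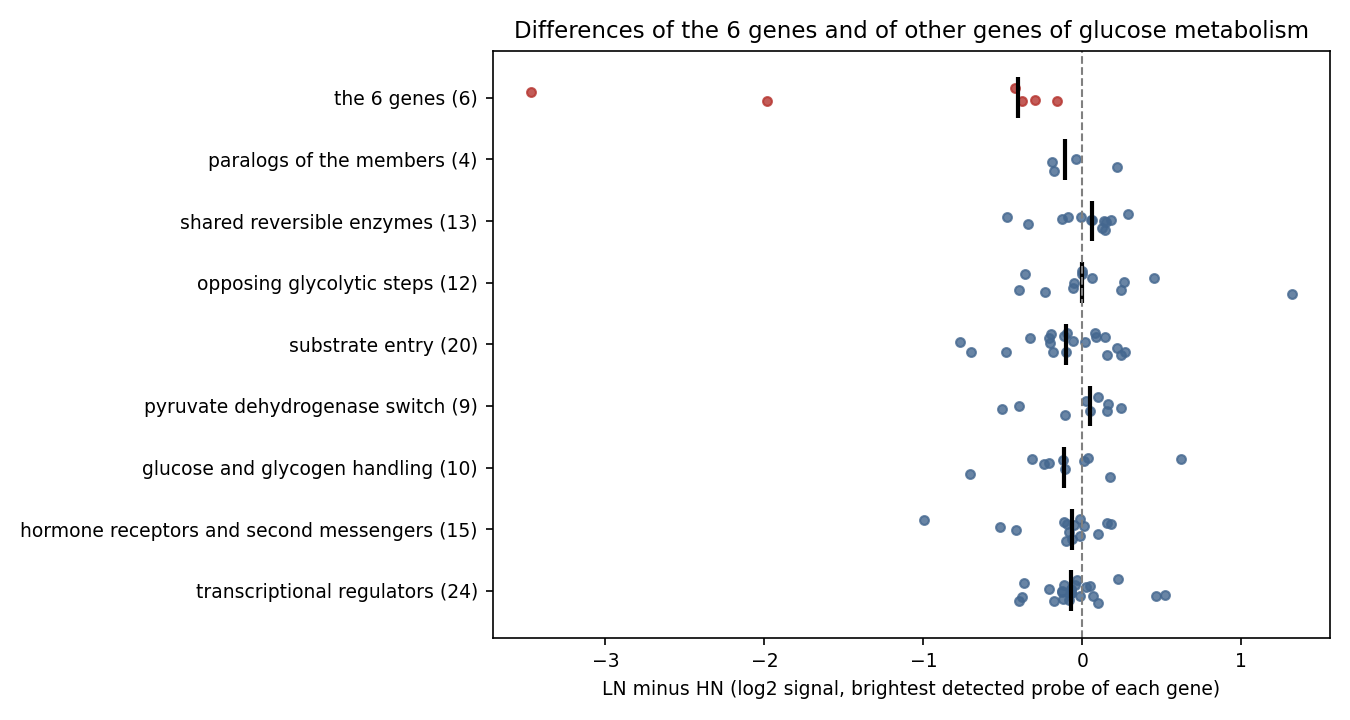
LN minus HN difference in log2 signal (horizontal axis) of the 6 genes (red, chosen with this difference known) and of the detected genes of 8 further lists (blue), where a point is the brightest detected probe of a gene and a vertical bar the median. G6PC1 (-3.47) and PCK1 (-1.98) lie outside the range of all points of the lists, from -0.999 (HSD11B1) to 1.32 (HKDC1).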

How the data were processed

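The authors deposited scanner output of each array with a processed intensity per spot, from which Agilent Feature Extraction 11.0.1.1 had removed background and spatial trend, without scaling between arrays. They also deposited a table of log2 values of 31068 probes, which the study's methods describe as quantile normalized in GeneSpring GX. Control spots and 16 probes marked as outliers were left out, replicate spots were averaged as log2 intensity, and arrays were quantile normalized over 43637 probes with limma 3.58.1 in R 4.3.3. Detection required a signal well above background on 4 or more of the 8 arrays. RefSeq accessions of 26740 probes were matched to genes by a reference table. The array was designed on another build than this table, so no coordinates are given. LN and HN were compared with limma (lmFit and eBayes, 2-sided, Benjamini-Hochberg), and the functions were tested on simulated data. Precision is limited by the number of arrays.

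The members and gene lists were chosen with earlier results of these data known. Named were all member probes, in each list the 2 genes with the largest difference in each direction and any without overlap, and the 5 genes most like G6PC1 and PCK1; exceptions are stated. FBP2 was named to complete its list. Alternatives were 75th percentile scaling, normexp background correction (offset 50, on spot and local background medians), the authors' table, detection on all 8 arrays, no filter, eBayes with trend and robust settings, the mean over probes, and each fetus left out. List genes without a detected probe were not analysed here. A few genes that this rule names are not reported here, but remain in the counts and medians.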

Additional observations from a re-analysis of the deposited data

Results flagged for a closer look

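Within each group, the highest and lowest fetus was compared with the others for the 11 detected member probes and the 6 sums of cell type markers, and 3 of 34 groups held a fetus whose gap to its nearest neighbour was too large a share of the group's range by Dixon's criterion. Chance gives about 5% of groups. For G6PC1, HN fetus L3 stood apart from the other HN fetuses at a log2 signal of 7.93, with the nearest at 11.44. For the brightest PCK1 probe, LN fetus L5 stood apart at 6.44, with the nearest LN fetus at 7.82. The summed signal of the detected erythroid markers was 6314 in LN fetus L5, with the nearest LN fetus at 430.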

How the results depend on the processing

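All 6 genes were lower in LN under every alternative except PCK2 without HN fetus L10 (0.035, range -0.29 to 0.035 with each fetus left out). With all fetuses in, G6PC1 was between -3.53 (75th percentile scaling) and -2.91 (normexp), and PCK1 between -2.16 (mean over probes) and -1.67 (normexp). The 75th percentile scaling moved the median of all probes from 0.0014 to -0.061, and the probes without overlap and lower in LN from 564 to 1130, while those higher in LN went from 817 to 586, so the balance of the directions turned. With each fetus left out, those lower in LN numbered 793 to 1309 and those higher 1026 to 1695. Probes past an adjusted p of 0.05 numbered 0 to 1, the 1 being TFF2 without LN fetus L6 (limma adjusted p = 0.0487), named after its value was seen. List medians near 0 changed sign: opposing glycolytic steps 0.0081 with 75th percentile scaling, hepatocyte markers -0.0028 with normexp and -0.022 over the mean of probes, and shared enzymes -0.024 over the mean of probes. With each fetus left out, medians ranged from -0.13 to 0.050 for transcriptional regulators, -0.057 to 0.030 for opposing glycolytic steps, -0.081 to 0.16 for endothelial markers, -0.21 to 0.041 for paralogs, -0.24 to 0.034 for macrophage markers, -0.15 to 0.00059 for substrate entry and -0.30 to 0.0094 for stellate and bile duct markers. The cause of these changes was not tested. Slide as a block could not be fitted, as no slide held both groups. The groups were compared as unpaired, since each fetus came from a different dam and each dam was fed 1 diet.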
